A study of Mus musculus with 17 samples.

Results

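The genes described here were 7 enzymes of cholesterol synthesis (Hmgcs1, Idi1, Fdps, Fdft1, Sqle, Lss and Cyp51) and Vldlr, a receptor of the LDL receptor family. Every non-control probe that carries 1 of these 8 gene names was read, which gave 18 of the 41174 probes on the array and 8 of its 28090 gene names. The genes were chosen by name, with earlier results of the same arrays known, and the study itself used these arrays to select its signature genes. All their levels and differences below are therefore a description, and whether a probe passed the threshold is given as a count beside the share of all probes that did, not as a test. The mRNA came from 6 populations of bone marrow cells of untreated female C57Bl/6 mice, 6 to 8 weeks old, with 10 to 20 mice pooled for a replicate sample. All cells had been depleted of lineage-positive cells and enriched for c-kit before sorting on surface antigens. The HSC subsets were long-term and short-term hematopoietic stem cells (LT-HSC and ST-HSC) and multipotent progenitors (MPP), taken in a single sort. The myeloid populations were common myeloid progenitors (CMP), granulocyte-monocyte progenitors (GMP) and megakaryocyte-erythroid progenitors (MEP), taken in another. LT-HSC had 2 arrays and each of the other populations had 3, 17 in all. Of the 2 LT-HSC arrays, 1 was a pool of replicates 2 and 3.

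Cholesterol is built from acetyl-CoA through mevalonate, the isoprenoid diphosphates, squalene and lanosterol. The transcription factor SREBP-2 is the known activator of the genes of this pathway when membranes are short of sterol, and it binds sterol regulatory elements together with NF-Y and Sp1. Cells also take up sterol and fatty acids from lipoproteins through receptors of the LDL receptor family. Vldlr binds lipoproteins rich in triglyceride, and also reelin, and is a target of the ubiquitin ligase Mylip.

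Levels are log2 intensities, quantile normalized over the 17 arrays, and a level is compared only with other levels of the same probe. A probe is called well above background where the scanner software says so. Between 41.0% and 69.9% of probes were well above background on an array, and the unnumbered LT-HSC array was the dimmest. The arrays were scanned on 4 days. Day 1 held replicates 1 and 2 of CMP, GMP and MEP. Day 2 held the unnumbered CMP, GMP and MPP arrays, day 3 the unnumbered MEP and ST-HSC arrays, and day 4 the other 6 arrays of HSC subsets. HSC subsets and myeloid populations therefore met only on days 2 and 3. Markers were summed as intensities and the sum was put on the log2 scale, so that the brightest markers weigh most. For 4 HSC markers (Procr, Slamf1, Meis1 and Hlf) this sum lay between 12.82 and 13.65 on the arrays of HSC subsets. It lay between 9.98 and 10.35 in CMP, between 8.68 and 9.02 in GMP and between 7.0 and 7.64 in MEP. The 5 MEP markers summed to 15.70 to 15.94 in MEP and to at most 14.60 elsewhere, and the 4 GMP markers found summed to 19.19 to 19.79 in GMP. These 4 reached 19.01 in ST-HSC and 19.05 in CMP. The 5 mature neutrophil markers summed to between 15.22 and 19.11, and were highest in ST-HSC and LT-HSC. In bulk samples, fewer cells of a type and less RNA per cell cannot be told apart.

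The promoters of 5 of the 8 genes were found in the RefSeq promoter table (GRCm38.p6) and are shown because the enzymes are known targets of SREBP-2. The 250 bases before the transcription start are printed 5′ to 3′ on the strand of the gene. Capitals mark exact matches on either strand to TCACNCCAC (a sterol regulatory element), CCAAT (the NF-Y motif) and GGGCGG (the Sp1 motif). N is any base. Elements that differ from these letters were not searched and are not marked.
Hmgcs1 (chr13:119690101-119690350, plus strand): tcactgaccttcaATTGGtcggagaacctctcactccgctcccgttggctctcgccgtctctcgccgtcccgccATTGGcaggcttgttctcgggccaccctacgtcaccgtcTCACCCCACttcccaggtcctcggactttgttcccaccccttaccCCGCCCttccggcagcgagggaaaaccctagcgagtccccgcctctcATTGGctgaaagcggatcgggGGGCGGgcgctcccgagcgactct
Idi1 (chr13:8885356-8885605, plus strand): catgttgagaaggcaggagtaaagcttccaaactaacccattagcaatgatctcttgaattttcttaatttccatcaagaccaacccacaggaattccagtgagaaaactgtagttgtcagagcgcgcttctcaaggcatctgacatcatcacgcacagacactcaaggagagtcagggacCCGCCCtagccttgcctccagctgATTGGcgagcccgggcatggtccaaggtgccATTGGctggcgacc
Lss (chr10:76531355-76531604, plus strand): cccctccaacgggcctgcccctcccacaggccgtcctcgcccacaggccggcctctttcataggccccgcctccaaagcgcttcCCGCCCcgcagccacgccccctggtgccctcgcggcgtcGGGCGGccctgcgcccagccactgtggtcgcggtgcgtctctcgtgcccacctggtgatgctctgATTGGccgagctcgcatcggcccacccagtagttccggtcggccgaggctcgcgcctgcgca
Cyp51 (chr5:4104698-4104947, minus strand): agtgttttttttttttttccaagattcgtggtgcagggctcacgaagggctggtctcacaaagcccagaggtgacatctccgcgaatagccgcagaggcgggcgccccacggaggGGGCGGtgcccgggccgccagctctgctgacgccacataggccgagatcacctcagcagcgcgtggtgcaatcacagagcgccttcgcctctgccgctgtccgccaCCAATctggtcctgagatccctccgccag
Vldlr (chr19:27216234-27216483, plus strand): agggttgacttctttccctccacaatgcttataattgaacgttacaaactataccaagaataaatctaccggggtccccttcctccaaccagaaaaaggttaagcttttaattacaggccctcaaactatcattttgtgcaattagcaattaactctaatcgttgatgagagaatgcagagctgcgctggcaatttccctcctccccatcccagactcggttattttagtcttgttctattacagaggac
The Hmgcs1 promoter held 1 match to the sterol regulatory element, which started 137 bases before the transcription start, with 3 CCAAT and 2 GGGCGG matches. No marked motif overlapped another. The promoter of Idi1 held 2 CCAAT and 1 GGGCGG, that of Lss 1 and 2, and that of Cyp51 1 and 1. None of the 3 motifs was in the Vldlr stretch shown. A second Vldlr window in the table, which starts at 27216770 on chromosome 19, held 1 CCAAT and 1 GGGCGG. Over all 32851 windows of this length, 1.05% held TCACNCCAC, 33.8% held CCAAT and 32.7% held GGGCGG. The table has no window for Fdps, Fdft1 and Sqle.

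Vldlr had the widest span of the 8 genes, and its level fell in steps from MPP to MEP. The probe with the higher mean (chromosome 19 of mm9, 27324042 to 27324101, plus strand) stood at 10.65 and 10.33 on the LT-HSC arrays, at 11.01, 11.06 and 10.54 in ST-HSC and at 11.43, 11.80 and 11.18 in MPP. In CMP it was at 8.18, 7.84 and 8.37, in GMP at 6.17, 5.72 and 5.65, and in MEP at 3.85, 4.34 and 5.23. All MPP arrays were above all ST-HSC arrays, ST-HSC and LT-HSC overlapped, and CMP, GMP and MEP followed without overlap. The population means ran from 11.47 ± 0.31 (SD, n = 3 arrays) in MPP to 4.47 ± 0.70 (SD, n = 3) in MEP. In MEP only 1 of the 3 arrays was well above background, so that the span of 7.0 between these log2 means has no exact fold. The HSC subsets exceeded the myeloid populations by 4.79 ± 0.19 (SE) on the log2 scale, with 7 of the 9 myeloid arrays well above background. The size depended on the setting and was 3.79 ± 0.12 (SE) in the authors' table and 3.15 ± 0.10 (SE) with the normexp background. The level in CMP, 8.13 ± 0.27 (SD, n = 3), lay between those of the HSC subsets and GMP. The second Vldlr probe (27328369 to 27328428), which the array design assigns to a cDNA of unclassified product, moved with the first over the 17 arrays (r = 0.95). It was at 8.11 and 6.03 in LT-HSC, at 8.09, 8.40 and 7.92 in ST-HSC, at 8.50, 9.19 and 8.31 in MPP and at 5.31, 5.26 and 5.89 in CMP. In GMP it was at 3.69, 2.94 and 3.99, well above background on 1 of 3 arrays, and in MEP at 1.72, 4.47 and 4.0, on none. Against the mean of the other populations, 6.58, the MEP mean of 3.40 gave a level at least 3.64-fold lower in this normalization. The bound, 1.87 on the log2 scale, sets each MEP array at the lowest signal well above background. It does not hold in other settings: the difference was -1.66 ± 0.25 (SE) in the authors' table and -1.08 ± 0.20 (SE) with the normexp background. The first 30 of the 60 bases of each probe identify them.
Vldlr, higher probe: attgtaaactttttcaatggttgggacaat
Vldlr, second probe: ctactgtgacttcaaaactgatctcaagta
The HSC marker list fell in the same order of CMP, GMP and MEP as Vldlr, and its part in the Vldlr values was not tested.

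**Figure D1:**
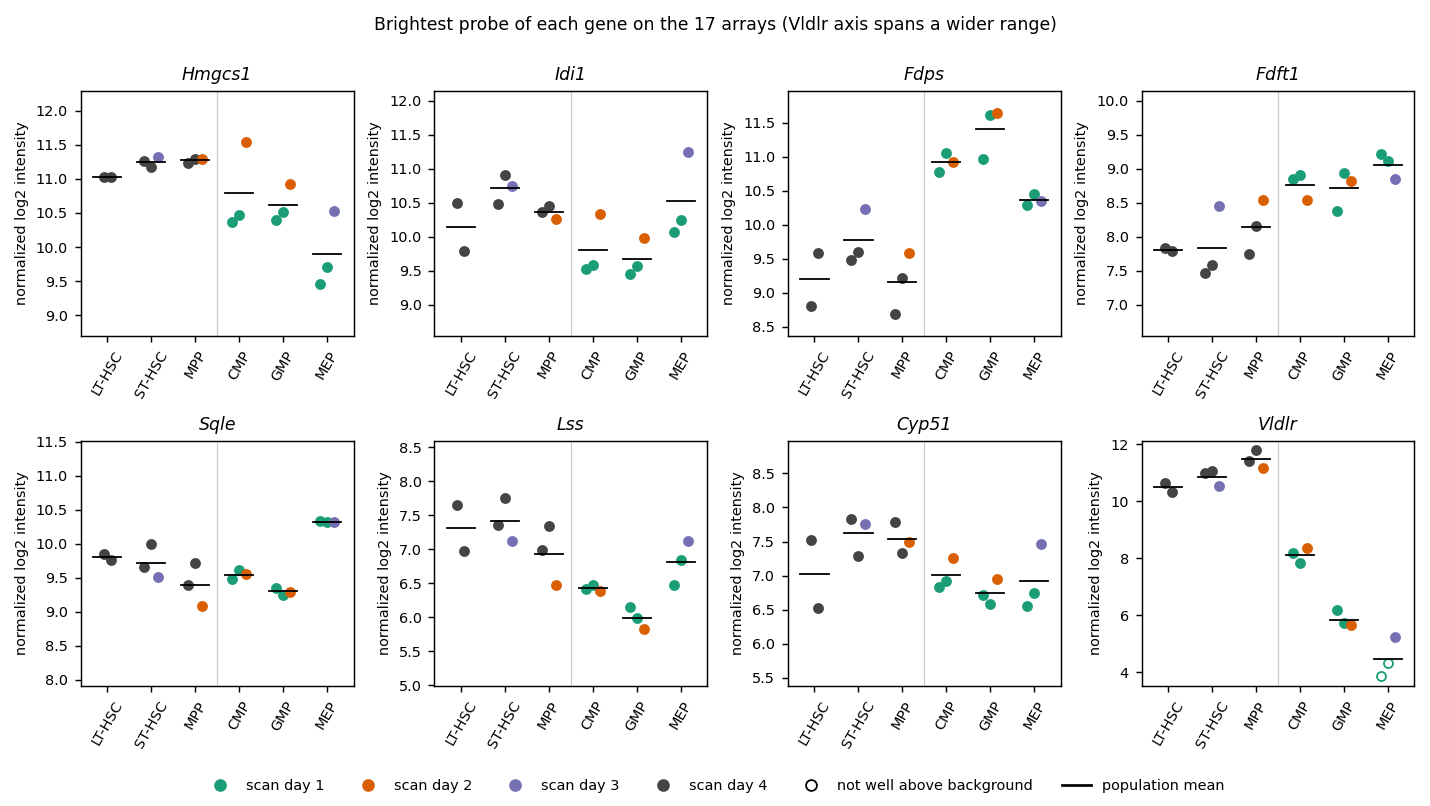
Normalized log2 intensity (vertical axis) of the brightest probe of each gene on each of the 17 arrays, by population (horizontal axis) and coloured by scan day. Bars are population means and open points were not well above background. Vldlr spans 7.0 log2 units between population means, while the widest span among the enzymes is 2.24, for Fdps.

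Over the 18 probes, 5 were higher and 8 lower in HSC subsets than in the myeloid populations at an adjusted p under 0.05 in limma. Of all probes, 18.2% were higher and 23.1% lower by the same call. Quantile normalization put 43.97% of the called probes of the whole array on the higher side, and scaling to the 75th percentile put 64.1% there. By the brightest probe of each gene, Hmgcs1, Lss, Cyp51 and Vldlr were higher and Fdps and Fdft1 lower, so that 6 of 8 genes were called in either direction, against 40.7% of all genes. The median difference of the 7 enzymes by their brightest probes was 0.41, against 0.04 over all genes. Over all 18 probes, those of Vldlr included, the median was -0.55, with 6 of 18 above 0, against -0.02 over all probes, so the sign depends on which probes are read. The median of the 18 was -0.10 under scaling to the 75th percentile, -0.12 with a normexp background and -0.21 in the authors' table. Over all probes these medians were 0.31, -0.01 and -0.01. By their brightest probes the enzymes showed no common direction. Of their 21 pairs, 10 correlated positively and 11 negatively over the 17 arrays, with r between -0.81 (Fdps with Lss) and 0.73 (Fdps with Fdft1). These correlations share the arrays, the populations and the scan days, and they depend on the probe taken. The brightest probe ran opposite to the 2 others of its gene for Lss (r = -0.55 and -0.38) and Cyp51 (r = -0.66 and -0.51). Between HSC subsets and myeloid populations no probe of Fdps, Fdft1 or Sqle was above 0. By the mean of all their probes, Hmgcs1, Idi1, Lss and Cyp51 were below 0 as well, though not all these differences passed. On 4 of the 18 probes the arrays of HSC subsets and of the myeloid populations did not overlap, both of Vldlr, 1 of Fdps and 1 of Lss. Over the whole array 8.05% of probes had no such overlap, in either direction.

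**Figure D2:**
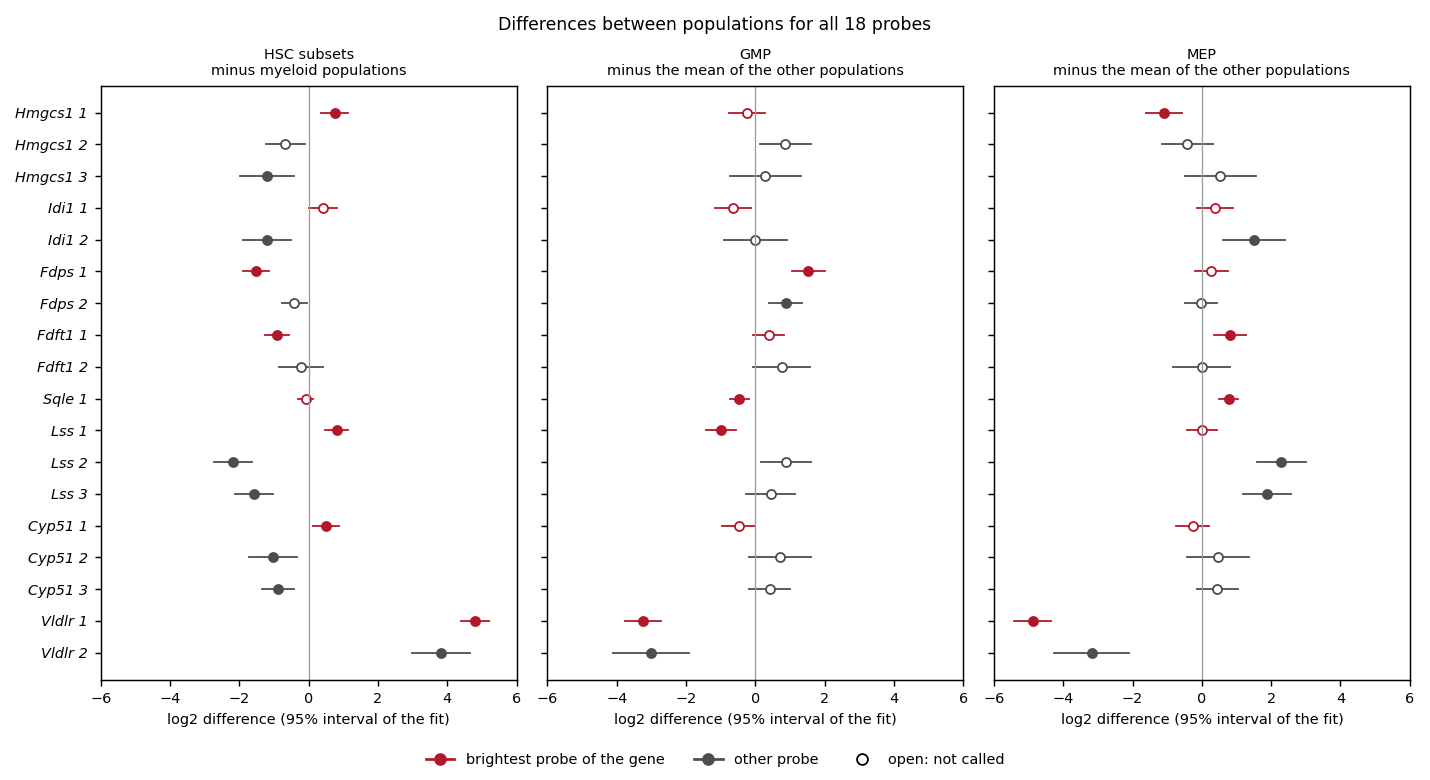
Log2 difference (horizontal axis) of each of the 18 probes in 3 contrasts, with the 95% interval of the limma fit. Filled points passed an adjusted p of 0.05, red marks the brightest probe of a gene, and Vldlr is the only gene with a difference beyond 3 in size.

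In the F-test over the 6 populations, 12 of the 18 probes had an adjusted p under 0.05, against 40.6% of all probes, and 1 probe, of Vldlr, passed p under 1e-06, against 4.90% of all probes. The median span between the highest and lowest population mean was 1.45 over the 18 probes and 1.21 over all probes.

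Hmgcs1, HMG-CoA synthase, makes the substrate of the rate-limiting step of the pathway. Its brightest probe, placed by the array design on an unanchored part of chromosome 13 (13_random of mm9, 114807 to 114866, minus strand), was at 11.02 on both LT-HSC arrays, at 11.26, 11.18 and 11.33 in ST-HSC and at 11.23, 11.29 and 11.30 in MPP. It was at 10.36, 10.47 and 11.54 in CMP, at 10.40, 10.52 and 10.93 in GMP and at 9.46, 9.71 and 10.52 in MEP. In CMP, GMP and MEP, the unnumbered array was the highest of the 3, and the CMP one was above every array of the HSC subsets. The difference between HSC subsets and myeloid populations was 0.75 ± 0.18 (SE), and MEP was below the mean of the other populations by -1.10 ± 0.24 (SE). With scan day as a block, the first became 0.22 ± 0.17 (SE) and did not pass, and the second became -0.81 ± 0.14 (SE) and passed. The 2 other Hmgcs1 probes were dim, well above background on 11 and on 1 of the 17 arrays, and neither followed the brightest (r = -0.06 and -0.35 over the 17 arrays).

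Idi1, isopentenyl diphosphate isomerase, interconverts the C5 units of the isoprenoids. Its brightest probe was at 10.5 and 9.79 in LT-HSC, at 10.47, 10.91 and 10.74 in ST-HSC and at 10.37, 10.45 and 10.26 in MPP. In CMP it was at 9.52, 9.59 and 10.33, in GMP at 9.45, 9.57 and 9.99 and in MEP at 10.07, 10.25 and 11.25. Every neighbour in the order of its population means overlapped, and no contrast passed in the fit over all 17 arrays without a block. In MEP its difference of 0.38 became 0.66 ± 0.19 (SE) with scan day and 0.62 ± 0.17 (SE) with replicate number as a block, and both passed. In GMP the difference of -0.64 passed in the authors' table, at -0.61, and without the LT-HSC arrays that of the HSC subsets passed, at 0.54. The array design places both Idi1 probes on chromosome 2 of mm9 (53553575 to 53553634 for the brightest), while the RefSeq promoter is on chromosome 13, so the assignment of these probes to Idi1 is uncertain. The dimmer probe was highest in MEP, at 5.12, 5.72 and 5.60, above all 14 other arrays, by 1.5 ± 0.42 (SE) over the mean of the other populations. With the scan day block it was 1.32 ± 0.57 (SE) and did not pass. The difference was smaller, and passed, under scaling to the 75th percentile (0.80), in the authors' table (0.59) and with the normexp background (0.34).

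Fdps and Fdft1 act in sequence, farnesyl diphosphate synthase making the substrate that squalene synthase commits to sterols. Both were lower in HSC subsets by their brightest probes. Fdps (chromosome 3, 88898812 to 88898952, a probe whose 60 bases span 141 on the genome) was at 8.81 and 9.59 in LT-HSC, at 9.48, 9.60 and 10.23 in ST-HSC and at 8.69, 9.22 and 9.58 in MPP. It was at 10.77, 11.06 and 10.92 in CMP, at 10.96, 11.62 and 11.65 in GMP and at 10.29, 10.46 and 10.35 in MEP. Every myeloid array was above every array of the HSC subsets. GMP was highest, with a range that overlapped CMP, and MEP was apart from both and from ST-HSC. The HSC subsets were below the myeloid populations by -1.52 ± 0.17 (SE), or 2.86-fold, and GMP was above the other populations by 1.53 ± 0.22 (SE), or 2.88-fold. Both differences passed in all fits run over the brightest probe or the mean of both probes, at -1.07 ± 0.29 (SE) and 1.24 ± 0.25 (SE) with scan day as a block. Within day 3 the difference between ST-HSC and MEP was -0.12, and within day 2 that between MPP and the mean of CMP and GMP was -1.70. The other Fdps probe, of a separate cDNA, had its highest mean in GMP, at 7.94, 7.24 and 7.52, where the LT-HSC array at 7.50 overlapped it. Its difference between HSC subsets and myeloid populations, -0.42, did not pass, and its GMP difference passed without a block and not with scan day as a block, at 0.74.

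Fdft1 (chromosome 14, 63765769 to 63770009, the probe spanning 4241 bases) was at 7.83 and 7.79 in LT-HSC, at 7.47, 7.59 and 8.45 in ST-HSC and at 7.75, 8.16 and 8.54 in MPP. It was at 8.85, 8.91 and 8.54 in CMP, at 8.37, 8.94 and 8.83 in GMP and at 9.22, 9.11 and 8.86 in MEP. The unnumbered ST-HSC and MPP arrays, at 8.45 and 8.54, reached into the myeloid range. The difference of -0.91 ± 0.16 (SE) between HSC subsets and myeloid populations became -0.22 ± 0.22 (SE) with scan day as a block and did not pass. MEP was 0.81 ± 0.21 (SE) above the other populations, and 0.39 ± 0.19 (SE) with the block, which did not pass. The other Fdft1 probe was well above background on 1 of the 17 arrays.

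Sqle, squalene epoxidase, is an oxygen-requiring step and a control point of the pathway. Its single probe (chromosome 15, 59162384 to 59162443) was at 9.85 and 9.77 in LT-HSC, at 9.66, 9.99 and 9.51 in ST-HSC and at 9.40, 9.71 and 9.09 in MPP. It was at 9.48, 9.61 and 9.56 in CMP, at 9.36, 9.25 and 9.30 in GMP and at 10.34, 10.32 and 10.31 in MEP. The 3 MEP arrays lay close together and above all others. The MEP marker list was also highest in MEP, as was that of mature erythroid cells, at 14.16 to 15.84 against at most 14.54 elsewhere, and their part in the Sqle values was not tested. MEP was above the mean of the other populations by 0.77 ± 0.13 (SE), or 1.70-fold. The value was 0.94 ± 0.12 (SE) with scan day as a block, 0.91 within day 1 and 0.81 within day 3. GMP was lowest, at 9.30 ± 0.05 (SD, n = 3), and its difference of -0.46 ± 0.13 (SE) did not pass with the block. Between HSC subsets and myeloid populations Sqle differed by -0.08 ± 0.10 (SE).

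Lss, lanosterol synthase, closes the sterol ring system, and its 3 probes did not move alike. The bases shown are the first 30 of each probe.
Lss, brightest probe: gctgatcatacacagccaatcacgcgcaca
Lss, probe 2: cgcttaaagttcttggactagcttcagtga
Lss, probe 3: tttgaatcatgtgaacagcggcggtatgtg
The brightest probe (chromosome 10, 76019513 to 76019572) belongs to a separate cDNA and lies downstream of probes 2 (76015992 to 76016051) and 3 (76013409 to 76013468), which carry the RefSeq accession of Lss. The brightest probe was at 7.66 and 6.97 in LT-HSC, at 7.35, 7.76 and 7.13 in ST-HSC and at 6.99, 7.34 and 6.48 in MPP. In CMP it was at 6.41, 6.48 and 6.38, in GMP at 6.16, 5.99 and 5.83, and in MEP at 6.48, 6.84 and 7.12. GMP was below all other arrays. Probe 2 was at 5.78 and 5.58 in LT-HSC, at 4.88, 5.52 and 6.22 in ST-HSC, at 4.40, 5.37 and 6.05 in MPP, at 7.55, 7.44 and 6.70 in CMP, at 7.12, 7.57 and 7.30 in GMP and at 8.86, 8.69 and 7.97 in MEP. By probe 2 every MEP array was above all others and no array of the HSC subsets reached the myeloid range. On probe 3 MEP, at 8.33, 8.20 and 7.20, was also above all others, while the highest ST-HSC array, at 6.41, was above the lowest CMP array, at 6.21. The HSC subsets were above the myeloid populations by 0.81 ± 0.15 (SE) on the brightest probe and below them by -2.19 ± 0.25 (SE) on probe 2 and -1.58 ± 0.25 (SE) on probe 3. In MEP the differences from the other populations were 0.00 ± 0.20, 2.29 ± 0.33 and 1.88 ± 0.32 (SE) in the same order. The normexp background made probes 2 and 3 differ less, by -1.16 and -0.66 for the HSC subsets and by 1.37 and 0.94 in MEP, and all 4 passed. Probes 2 and 3 correlated at r = 0.89 over the 17 arrays, and the brightest probe correlated with them at -0.55 and -0.38. With scan day as a block, the MEP differences of probes 2 and 3, at 1.61 ± 0.28 and 1.81 ± 0.33 (SE), passed, and none of the 3 differences between HSC subsets and myeloid populations did.

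Cyp51, lanosterol 14-alpha-demethylase, removes the first methyl group on the way to cholesterol. It showed the same split between probes.
Cyp51, brightest probe: aggttccttttagtattatctttggttatt
Cyp51, probe 2: caaaagaaccagctgaggacattcttcaaa
Cyp51, probe 3: cgttgtgttggagaaaattttgcctatgtt
The brightest probe (chromosome 5, 4081471 to 4081530, minus strand) was at 7.52 and 6.53 in LT-HSC, at 7.83, 7.28 and 7.76 in ST-HSC, at 7.78, 7.33 and 7.50 in MPP, at 6.83, 6.92 and 7.26 in CMP, at 6.71, 6.58 and 6.95 in GMP and at 6.55, 6.75 and 7.46 in MEP. The ranges of HSC subsets and myeloid populations overlapped. The difference was 0.51 ± 0.17 (SE) on this probe, -1.04 ± 0.32 (SE) on probe 2 (4092033 to 4092439, spanning 407 bases) and -0.89 ± 0.21 (SE) on probe 3 (4083236 to 4083295). With the normexp background these were 0.22, -0.25 and -0.33, and the first did not pass. In the authors' table the first, at 0.32, did not pass either. Under scaling to the 75th percentile they were 0.71, -0.14 and -0.35, and only the first passed. Probe 2 was at 5.51 and 5.73 on the day 1 arrays of CMP and at 3.96 on the day 2 array, and at 5.26 and 5.38 on the day 1 arrays of MEP against 3.98 on day 3. With scan day as a block the 3 differences were 0.17 ± 0.29, 0.39 ± 0.45 and -0.31 ± 0.40 (SE), and none passed.

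**Figure D3:**
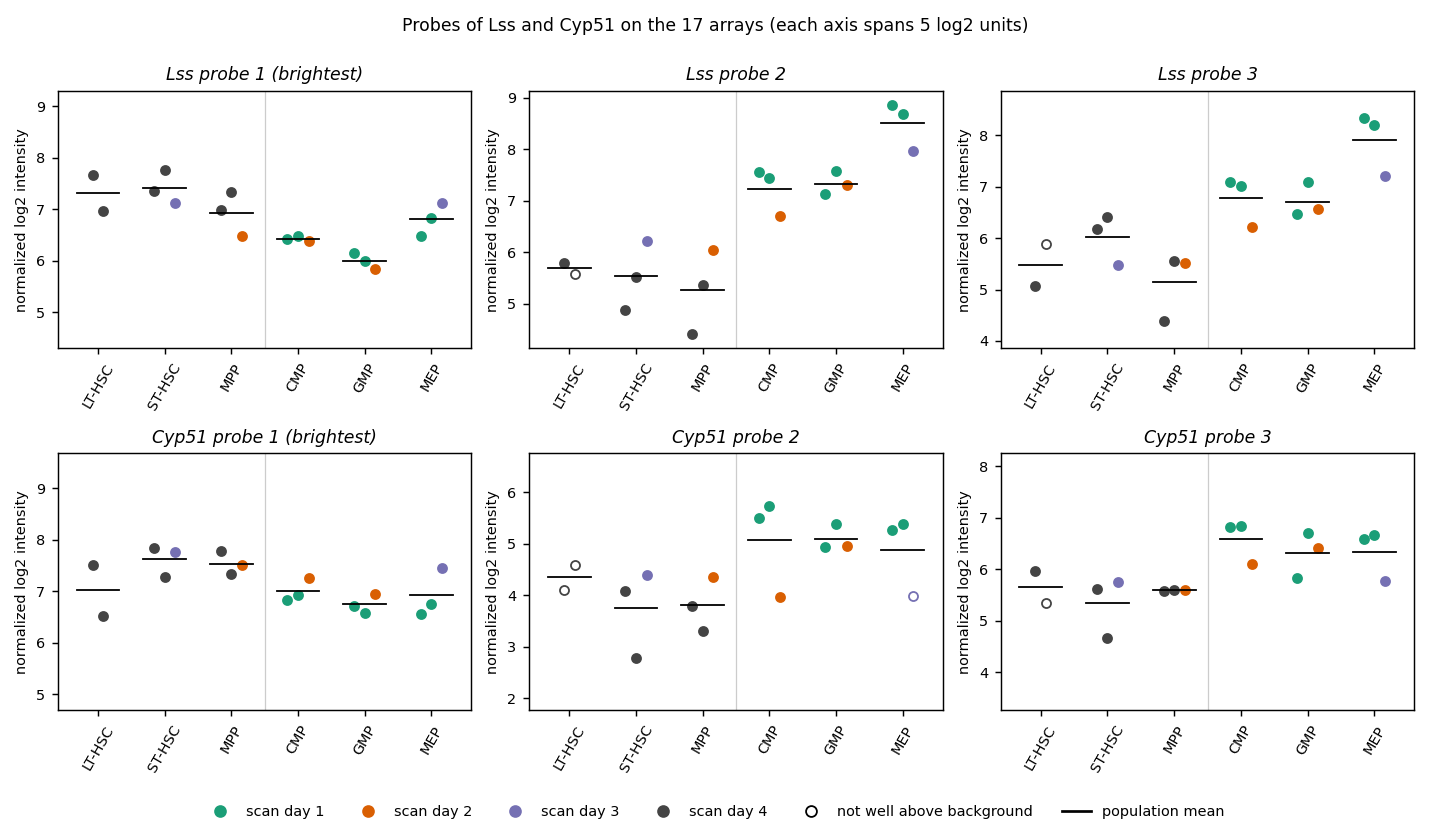
Normalized log2 intensity (vertical axis) of the 3 probes each of Lss (top) and Cyp51 (bottom) on the 17 arrays, by population (horizontal axis) and coloured by scan day, with population means as bars. The brightest probe of Lss is higher in HSC subsets while its probes 2 and 3 are highest in MEP.

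Set against the mean of the other populations, GMP had 2 probes higher, both of Fdps, and 4 lower, which were Sqle, the brightest Lss probe and both Vldlr probes. Over all probes 11.2% were higher and 8.51% lower in GMP. By the brightest probe 4 of 8 genes were called in either direction, against 19.8% of all genes. Of the called probes of the whole array, 56.7% were higher in GMP under quantile normalization and 43.3% under scaling to the 75th percentile. Vldlr was below the other populations by -3.24 ± 0.24 (SE) in GMP, by -2.69 ± 0.16 (SE) in the authors' table and by -2.25 ± 0.13 (SE) with the normexp background. Within day 1, where GMP met CMP above it and MEP below it, the Vldlr difference was -0.10, and within day 2, against MPP and CMP, it was -4.12. In MEP 5 probes were higher, those of Sqle, 1 of Idi1, 1 of Fdft1 and 2 of Lss, and 3 were lower, 1 of Hmgcs1 and both of Vldlr. The background in MEP was 17.9% higher and 13.4% lower over probes. By the brightest probe 4 of 8 genes were called in either direction, against 30.8% of all genes. Vldlr was below the other populations by -4.89 ± 0.24 (SE) in MEP, where 1 of 3 arrays was well above background. This difference was -3.41 ± 0.16 (SE) in the authors' table and -2.63 ± 0.13 (SE) with the normexp background. These contrasts share arrays with each other and with that of the HSC subsets.

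Scan day moved with the populations. With scan day as a block, 4 of the 18 probes passed between HSC subsets and myeloid populations in place of 13. Over all probes 13.2% passed with this block, so the count fell over the whole array as well. With slide as a random block 8 of the 18 passed, and 28.7% of all probes. Of the 13, 3 passed again with scan day as a block in the same direction, the brightest of Fdps and both of Vldlr. The dim Fdft1 probe, well above background on 1 array, passed with scan day as a block and not without a block, there and in GMP. In GMP 4 probes passed in place of 6, of which 3 were shared, and in MEP 7 in place of 8, of which 6 were shared, against 13.2% and 30.8% of all probes with the block. Vldlr was above the myeloid populations by 4.06 ± 0.30 (SE) with the block, by 4.17 within day 2 (MPP against CMP and GMP) and by 5.31 within day 3 (ST-HSC against MEP).

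**Figure D4:**
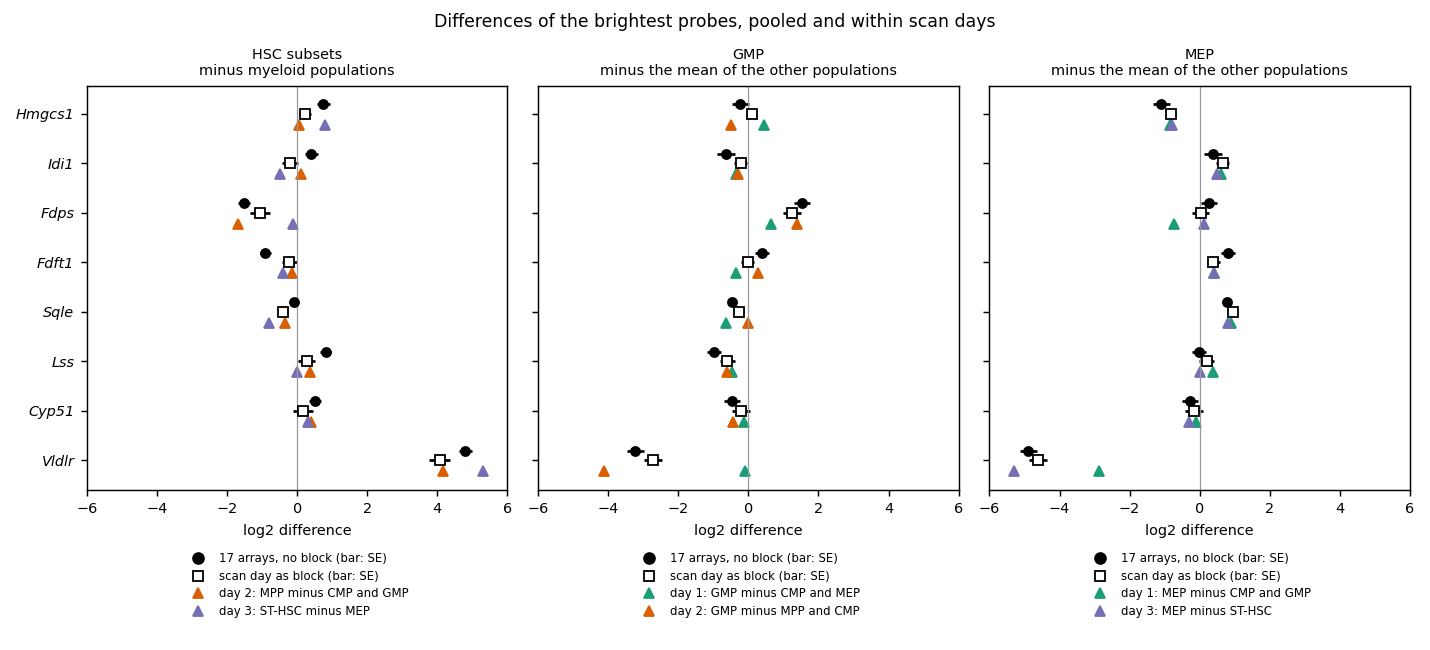
Log2 difference (horizontal axis) of the brightest probe of each gene in 3 contrasts, from all 17 arrays without a block (circles) and with scan day as a block (squares), both with the SE, and within single scan days (triangles, no error). Vldlr lies near 4 to 5 for the HSC subsets in all of them, while Fdft1 moves from -0.91 to -0.22 with the block.

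The other genes of sterol and lipid supply were taken from 6 lists of 64 genes in all, each by its brightest probe. Between HSC subsets and myeloid populations 18 were higher and 18 lower, 36 of 64 against 40.7% of all genes, with a median difference of 0.03 against 0.04. Of the 64, 18 passed with scan day as a block, against 14.1% of all genes. The list medians of this difference lay between -0.33, for the mevalonate and prenyl genes, and 0.16, for the sterol steps after lanosterol. In GMP 19 of the 64 were higher and 14 lower, 33 in all against 19.8% of all genes, and in MEP 17 and 22, 39 in all against 30.8%. In GMP the list medians ran from -0.66 for fatty acid synthesis to 0.68 for the mevalonate and prenyl genes, against -0.05 over all genes. In MEP they ran from -1.15 for the lipoprotein receptors and adaptors to 0.52 for fatty acid synthesis, against 0.00 over all genes. Each gene and contrast was read on the same 17 arrays. Of the 6 mevalonate and prenyl genes, 3 were lower in HSC subsets (Dhdds, Mvd and Mvk) and 3 did not pass. Mvk passed again with scan day as a block, and Mvd, at -0.36, and Dhdds, at -0.47, did not. Mvk, mevalonate kinase, was at a mean of 6.77 in HSC subsets and 8.02 in myeloid populations, a difference of -1.25 ± 0.16 (SE, adjusted p = 3.54e-05). In GMP 3 of these 6 were higher, among them Mvd, which makes isopentenyl diphosphate, by 1.07 ± 0.17 (SE, adjusted p = 0.000705), and Dhdds, of dolichol synthesis, by 0.91 ± 0.18 (SE, adjusted p = 0.00343). In MEP 2 were higher, Mvk and Pmvk, the next kinase, with Pmvk at 0.86 ± 0.19 (SE, adjusted p = 0.00298). None was lower in GMP or MEP without a block, and with scan day as a block Pmvk was lower in GMP, at -0.50.

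Of the 9 genes of the sterol steps after lanosterol, 3 were higher and 3 lower in HSC subsets. Only 1 of these 6 passed with scan day as a block. Hsd17b7, a 3-ketosterol reductase, was lower by -0.86 ± 0.12 (SE, adjusted p = 9.47e-05), and by -0.55, no longer passing, with scan day as a block. In GMP 2 were higher, with Tm7sf2, a sterol reductase, at 0.62 ± 0.11 (SE, adjusted p = 0.00158), and none lower. In MEP 3 were higher and 1 lower. With the scan day block 1 of the 2 GMP calls and 2 of the 4 MEP calls passed again. Nsdhl, which removes the C4 carboxyl group, was higher in MEP by 0.84 ± 0.24 (SE, adjusted p = 0.0144), but did not pass without the unnumbered MEP array, at 0.68.

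Of the 7 genes that control SREBP, 2 were higher in HSC subsets and none lower, and 1 of the 2, Srebf2, passed again with scan day as a block. Srebf2, which encodes SREBP-2, had population means of 13.53 (LT-HSC), 13.70 (ST-HSC) and 14.02 (MPP), of 13.03 in CMP, and of 11.99 and 11.89 in GMP and MEP. Its difference between HSC subsets and myeloid populations was 1.44 ± 0.09 (SE, adjusted p = 1.14e-07), with no overlap of arrays. It was below the other populations by -1.25 ± 0.12 in GMP (SE, adjusted p = 9.42e-06) and by -1.36 ± 0.12 in MEP (SE, adjusted p = 1.19e-06). In GMP 2 of the 7 were lower, and in MEP 1 was higher and 1 lower.

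Of the 15 lipoprotein receptors and their adaptors, 3 were higher and 5 lower in HSC subsets. Mylip, the ligase that targets Vldlr and its relatives for degradation, was higher by 1.88 ± 0.15 (SE, adjusted p = 1.03e-06), or 1.20 and still passing with the scan day block, and Lrp12 by 1.51 ± 0.15 (SE, adjusted p = 4.89e-06). Scarb1, the HDL receptor, was lower by -1.24 ± 0.10 (SE, adjusted p = 1.14e-06). With scan day as a block 3 of these 8 passed again in the same direction, and Lrp10 and Sorl1 turned direction without passing. In GMP 7 were higher and 2 lower, with Sorl1, a sorting receptor, at 2.73 ± 0.52 (SE, adjusted p = 0.00224) and Lrpap1, the chaperone of the family, at 1.0 ± 0.12 (SE, adjusted p = 9.08e-05). The Sorl1 value was 1.33 and did not pass with scan day as a block. In MEP 3 were higher and 7 lower, among them Mylip at -1.86 ± 0.19 (SE, adjusted p = 7.61e-06) and Lrp8, the closest relative of Vldlr, at -1.16 ± 0.21 (SE, adjusted p = 0.000926). By the mean of all its probes Lrp8 did not pass, at -0.34. Lrp10 was higher by 0.54 ± 0.18 (SE, adjusted p = 0.0377), a call lost in most alternatives and at 0.19 with scan day as a block.

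Of the 16 genes of sterol efflux, storage and oxysterols, 6 were higher and 4 lower in HSC subsets, and 7 of these 10 passed again in the same direction with scan day as a block. Abcg1 and Abcg4, like Vldlr, are among the genes the study selected on these arrays, so their direction is not independent evidence. Cyp7b1, an oxysterol hydroxylase, was at 8.22 in HSC subsets and 2.78 in myeloid populations, a difference of 5.43 ± 0.15 (SE, adjusted p = 3.44e-10). Only the 3 CMP arrays of the 9 myeloid arrays were well above background, and the difference was 2.82 in the authors' table and 1.90 with the normexp background. The efflux pumps Abca1 and Abcg1 were higher in HSC subsets by 2.75 ± 0.26 (SE, adjusted p = 3.88e-06) and 2.71 ± 0.18 (SE, adjusted p = 1.98e-07), and by 1.79 and 1.97, still passing, with the scan day block. In GMP Soat1, which esterifies cholesterol for storage, was higher by 2.01 ± 0.23 (SE, adjusted p = 4.29e-05), among 5 higher and 4 lower genes. In MEP Soat1 was lower by -3.61 ± 0.23 (SE, adjusted p = 7.88e-08) and Abcg1 by -3.44 ± 0.23 (SE, adjusted p = 1.48e-07), among 3 higher and 10 lower genes. Abcg4, a related pump, was higher in MEP by 5.31 ± 0.39 (SE, adjusted p = 2.95e-07). Stard3 was lower by -0.52 ± 0.12 (SE, adjusted p = 0.00385), and did not pass under scaling to the 75th percentile, at -0.30.

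Of the 11 genes of fatty acid synthesis, 4 were higher and 3 lower in HSC subsets. Of these 7, 5 passed again with scan day as a block, and 1 of the lower genes, Fads1, named here for its change of sign, went from -0.49 to 0.36 and did not pass. Acaca, acetyl-CoA carboxylase, was lower in HSC subsets by -2.13 ± 0.24 (SE, adjusted p = 1.67e-05), and by -0.86, still passing, with the scan day block. Me1, malic enzyme, was well above background on 5 arrays of the HSC subsets and on no myeloid array. In GMP 2 were higher and 6 lower, and 6 of these 8 passed again with the scan day block. The lower genes included Fads2, a fatty acid desaturase, at -1.86 ± 0.15 (SE), Acss2, acetyl-CoA synthetase, at -1.34 ± 0.15 (SE) and Elovl6, an elongase, at -0.66 ± 0.11 (SE). In MEP 5 were higher and 3 lower. Fads2 and Acss2 were higher there, by 2.05 ± 0.15 (SE) and 1.57 ± 0.15 (SE), while the elongase Elovl5 and the desaturase Scd2 were lower, by -1.38 ± 0.13 (SE) and -1.05 ± 0.18 (SE).

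**Figure D5:**
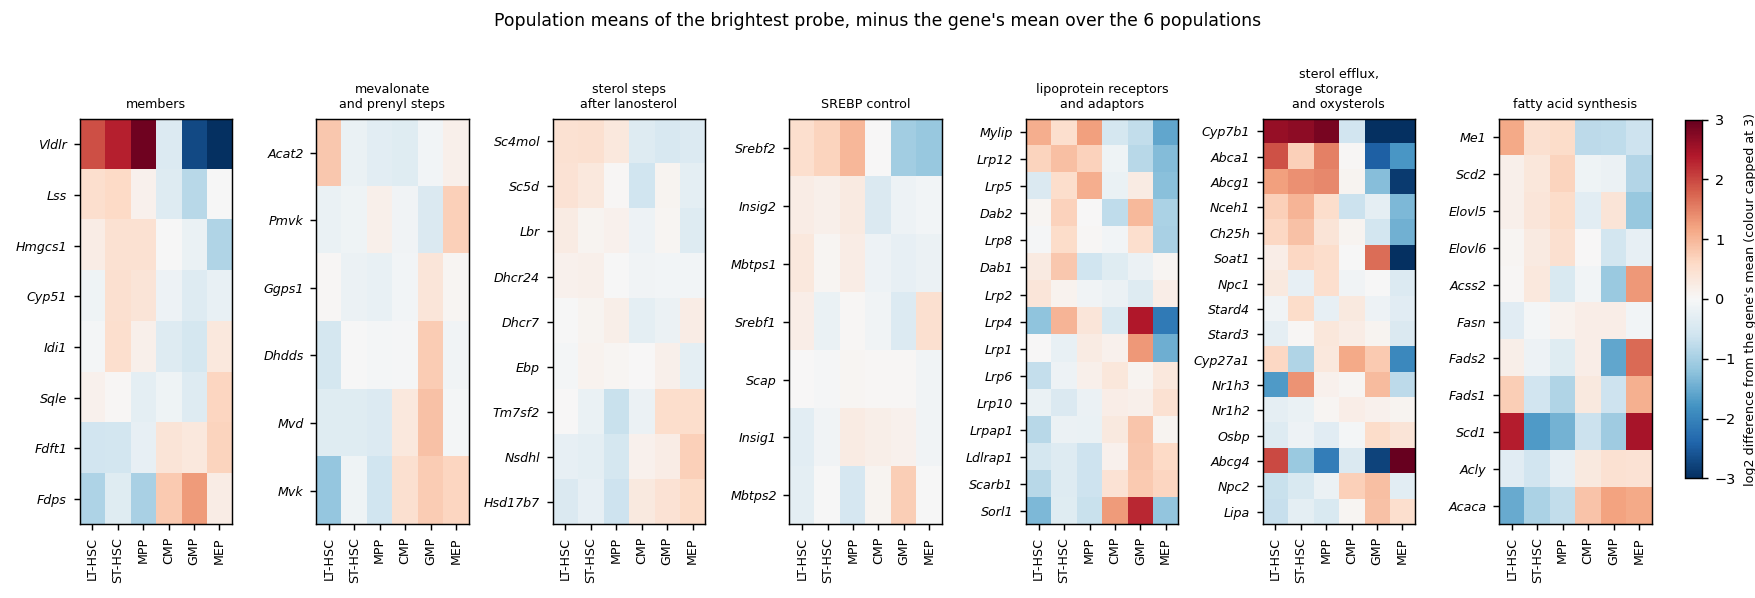
Population means of the brightest probe of each gene (rows, sorted by the difference between HSC subsets and myeloid populations) minus the mean of the gene over the 6 populations (columns), as log2 differences with the colour capped at 3. Vldlr, Cyp7b1 and Abcg1 are high in the HSC subsets, Abcg4 is highest in MEP, and most enzymes of synthesis stay pale.

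The genes outside these lists whose levels ran most like Vldlr over the 17 arrays, among 15357 gene names well above background on most arrays, were Emcn (r = 0.995), Cnrip1 (r = 0.992), Zfp579 (r = 0.989), Gimap1 (r = 0.989) and Tanc2 (r = 0.989). The mean of the 7 enzymes, each by its brightest probe and centred on its own mean, stayed between -0.26 and 0.38 on all arrays. Enzymes that ran in opposite directions, as Fdps and Lss did by these probes (r = -0.81), offset each other in this mean. It therefore does not describe the single enzymes. ST-HSC had the highest mean, 0.16 ± 0.12 (SD, n = 3), and that of MEP was 0.10 ± 0.25 (SD, n = 3). LT-HSC, at -0.13 ± 0.17 (SD, n = 2), and GMP, at -0.11 ± 0.15 (SD, n = 3), were lowest, and the range of ST-HSC lay above those of LT-HSC, MPP and GMP while all other pairs of populations overlapped. Its nearest gene was Cox6a1, a subunit of the respiratory chain (r = 0.88). These correlations run over arrays that share populations and scan days.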

How the data were processed

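Total RNA of 17 sorted samples was hybridised to Agilent 1-colour mouse arrays. The deposited scanner files hold spot intensities from Agilent Feature Extraction 9.5.3.1 or 10.2.1.3, with background already subtracted in the processed signal that was used. The authors' table holds log2 values, quantile normalized by them, and served as an alternative. It keeps the order of the spot intensities on every array. Of 45018 spots, 1639 control spots were dropped after normalization, and spots marked as outliers were left out, so that 161 probe values were missing. The mean was taken over repeated spots, giving 41174 probes.

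Following the study's methods, log2 intensities were quantile normalized and fitted in limma 3.58.1 (R 4.3.3) with 1 mean per population. Adjustment of p-values by Benjamini-Hochberg over all probes, at a threshold of 0.05, was added here. The scripts were tested on simulated data. Nothing in the labels says that arrays of a population come from separate sorts in every case, so p-values measure the spread between these samples. The number of arrays limits the precision.

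The members and lists were chosen with earlier results of these data known. The genes named from a list were, for each contrast, the called genes without overlap of arrays, at most the 3 with the largest difference in each direction, or the largest called gene where none qualified. A gene was represented by its brightest probe, and symbols are those of the array design. Some genes of the pathway and of the marker lists are not reported here. Other settings tried were scaling to the 75th percentile, a normexp correction of the background (offset 50), the deposited table, a limit to probes well above background on at least 3 arrays, and the mean over the probes of a gene. Scan day and replicate number were each entered as a block and slide as a random effect, and arrays were left out 1 at a time, as were both LT-HSC arrays.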

Additional observations from a re-analysis of the deposited data

How the results depend on the processing

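The counts of member probes called were 13 for HSC subsets against myeloid populations, 6 for GMP and 8 for MEP. The first became 4 with scan day as a block and 8 with slide as a random block, while the calls over all probes fell from 17006 to 5442 and 11835. Under scaling to the 75th percentile it became 9, with 16942 calls over all probes. The calls lost under this scaling were all of lower probes, of Hmgcs1, Idi1 and Cyp51. Counted over 8 genes by the mean of all their probes, the calls were 5, 3 and 4, and 4 in the F-test. By the brightest probe of the same 8 genes they were 6, 4 and 4, and 6 in the F-test, where 12 of the 18 probes were called. Taking the mean of all probes also turned the direction of the brightest probe for Hmgcs1 (-0.38), Lss (-0.99) and Cyp51 (-0.47) between HSC subsets and myeloid populations, and for Lss in GMP (0.11) and MEP (1.39). Differences that passed in neither fit also changed sign, for Idi1 between HSC subsets and myeloid populations (-0.40), Hmgcs1 in GMP (0.30) and Cyp51 in GMP (0.22) and MEP (0.21). The MEP calls of Hmgcs1 (-0.33) and Fdft1 (0.40) were lost and that of Idi1 (0.94) was gained. At p under 1e-06 the F-test called 1 probe, and 2 under scaling to the 75th percentile, with the authors' table and without MEP replicate 1. The list genes called between HSC subsets and myeloid populations fell from 36 to 18 with scan day as a block. Sizes also depended on the background correction. With the normexp background the difference between HSC subsets and myeloid populations was 3.15 for Vldlr, 1.90 for Cyp7b1, 1.62 for Abca1 and -1.22 for Acaca, with no call lost. The cause of the changes with scan day and slide was not tested.

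Leaving out each array in turn gave 12 to 15, 4 to 7 and 7 to 8 member probes in the 3 contrasts, 9 to 14 and 1 to 2 in the F-tests, and 31 to 37, 26 to 33 and 34 to 40 list genes. The GMP call of Sqle was lost without any of the GMP arrays, and the MEP call of Fdft1 without MEP replicate 1, at 0.73.

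With replicate number as a block, 11, 8 and 9 member probes were called, 13 and 1 in the F-tests, and 33, 33 and 37 list genes. The labels do not say that a number pairs samples. Over 14 same-numbered pairs the deviations correlated between -0.06 and 0.52, 8 of them above 0.1, and 8 of 10 numbered arrays correlated best with an array of their own number. Among the CMP, GMP and MEP arrays, those of the same number shared a slide, so number and slide cannot be told apart there.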
